A study of Rattus norvegicus with 18 samples.

Results

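Mecom, Slc33a1, Tiparp and Ppm1l are 4 genes of rat chromosome 2 that each have several probe sets on the Affymetrix Rat Genome 230 2.0 array. In each gene 1 probe set read lower in the congenic strain while the brightest one differed less. Every probe set that the platform annotation pairs with these genes was taken, dim ones included, which gave 4 of 14217 genes named by a probe set, and 10 of 31042 probe sets: 2 for Mecom, 3 for Slc33a1, 2 for Tiparp and 3 for Ppm1l. The genes were chosen because their probe sets disagreed about the difference between strains, so that difference is given as a description, without a test.

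Whole kidneys of 18 rats were measured, 1 array per rat. The Dahl S group held 9 rats of the inbred Dahl salt-sensitive strain SS/Jr, and the S.SHR(2) group held 9 rats of a congenic strain made from SS/Jr and SHR/NHsd, whose name places the introgressed segment of the spontaneously hypertensive rat on chromosome 2 and which otherwise shares the Dahl S background. The design text describes male rats tested for proteinuria at 4, 12 and 20 weeks, but the labels give an age for 2 rats only, a Dahl S rat of 4 weeks and a Dahl S rat of 12 weeks, both on a diet of 0.3% NaCl, so no comparison was made by age or diet. The arrays were deposited in 3 runs of 6, each with 3 Dahl S and 3 S.SHR(2) rats, and these runs are called deposit blocks here. A block is a place in the order of deposit and was not treated as an age group, but the rat labelled 4 weeks lies in the first block and the one labelled 12 weeks in the second, so age and block cannot be told apart where blocks are compared. Each sample title carries an identifier of its own but no replicate number. The replicate numbers used here (1 to 9 in each strain) only name the rats in the order of deposit. Nothing in the labels says which rats were littermates, and the p-values measure the spread between these rats.

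As background, Mecom encodes a zinc finger transcription regulator of the PRDM family that is known for its role in blood stem cells and occurs as a long and a short protein from different promoters. Tiparp is a mono-ADP-ribosyltransferase that is induced by the aryl hydrocarbon receptor and in turn limits that receptor. Slc33a1 carries acetyl-CoA across the membrane of the endoplasmic reticulum and Golgi, where it is used to acetylate proteins and sialic acids. Ppm1l is a metal-dependent serine/threonine phosphatase of the endoplasmic reticulum that acts on stress kinases. A probe set is a group of short probes that reads 1 stretch of a transcript, usually near its 3′ end, so probe sets of 1 gene can report different transcript forms. The probe sequences and the stretches they read were not analysed here.

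The promoters of the genes with the widest disagreement are shown, as listed by RefSeq for the assembly GRCr8 (250 bases before to 50 after the listed start), because Tiparp is a target of the aryl hydrocarbon receptor. Capitals mark GCGTG or its reverse complement CACGC, the core of that receptor's binding motif. The Tiparp promoter is chr2:152063519-152063818 on the plus strand and the Mecom promoter is chr2:114837643-114837942 on the plus strand.
Tiparp: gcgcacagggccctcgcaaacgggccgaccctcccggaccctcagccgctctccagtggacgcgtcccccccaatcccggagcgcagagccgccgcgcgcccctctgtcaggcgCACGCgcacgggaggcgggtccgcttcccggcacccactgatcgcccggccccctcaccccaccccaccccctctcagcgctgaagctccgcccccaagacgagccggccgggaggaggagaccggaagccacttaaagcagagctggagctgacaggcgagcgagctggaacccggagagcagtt
Mecom: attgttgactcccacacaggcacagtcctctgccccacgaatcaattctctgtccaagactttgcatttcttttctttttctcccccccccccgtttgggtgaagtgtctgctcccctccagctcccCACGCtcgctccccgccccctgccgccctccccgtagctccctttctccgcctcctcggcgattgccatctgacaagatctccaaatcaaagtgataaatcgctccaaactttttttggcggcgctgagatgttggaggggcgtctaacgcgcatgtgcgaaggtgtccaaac
Each of these holds the letters once. On both strands the motif was present once in the Slc33a1 window and absent from the Ppm1l window, and 29.7% of 33469 promoters of this length hold it. The GC box GGGCGG or its complement had 2 matches in the window of Mecom, 1 each in those of Tiparp and Ppm1l and 0 in that of Slc33a1, against 33.1% of promoters with a match. The GC content was 72.7% for Tiparp, 70.7% for Ppm1l, 64.7% for Slc33a1 and 56.3% for Mecom, and the median promoter had 51.7%. A match is a description of letters and says nothing of binding in these kidneys.

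The values are deposited intensities on a linear scale, and each array had a trimmed mean between 150.046 and 150.054. The tissue label was checked against 12 probe sets of kidney markers. Of these, Slc34a1, Umod, Lrp2 and Aqp2 were bright (mean intensity up to 7065). The lowest kidney mean was 14.1, in a probe set of Nphs1, whose other probe set read 97.5 in Dahl S and 101 in S.SHR(2). The highest adrenal marker read 10.99 and the highest liver marker 14.4, so the dim Nphs1 probe set was at the level of the latter. The exception among markers of other tissues was Myh1, a muscle myosin, whose probe sets reached 3299 while the muscle creatine kinase Ckm read 13.3. Fat markers read 6.92 to 42.9 and immune cell markers 18.9 to 139. In the limma fit 0 of the 34 marker probe sets were called between strains, with 1 at an unadjusted p under 0.05. Only 0.0741% of all probe sets were called, so the absence of calls says little about cell composition. The 5 immune cell marker probe sets had a median log2 difference (S.SHR(2) minus Dahl S) of −0.19. The ratio of 3′ to 5′ signal for GAPDH, a measure of RNA integrity and labelling, ran from 1.19 to 1.60 on 15 arrays, and was 1.74 in S.SHR(2) replicate 5, 2.04 in Dahl S replicate 5 and 2.51 in S.SHR(2) replicate 1. The same ratio for beta-actin was higher, from 2.22 in Dahl S replicate 1 to 5.88 in Dahl S replicate 5 and 6.83 in S.SHR(2) replicate 1. The 3 TrpnX control probe sets, for a bacterial transcript, read 0.4 to 15.2 with a median of 2, and served as the level of a probe set without a target. The other bacterial controls read 14.1 to 1588 and were not used for this. Precision is limited by how many arrays there are. In whole tissue, fewer cells of a type and less RNA per cell cannot be told apart.

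The 2 probe sets of Mecom gave different pictures of the gene. The dimmer, 1395073_at, had a lowest, median and highest intensity of 172, 258 and 305 over the 9 Dahl S rats and of 46.1, 65.5 and 101 over the 9 S.SHR(2) rats. Every S.SHR(2) rat lay below every Dahl S rat, and all 18 readings were above the TrpnX controls of the same array. The mean was 247 ± 47.5 against 68.6 ± 17.4 (SD, n = 9 each), a ratio of 3.60 between strains, and the log2 difference, S.SHR(2) minus Dahl S on the log2(intensity + 16) scale after quantile normalization, was −1.63 ± 0.136 (SE). The brighter, 1376082_at, ran from 548 through a median of 728 to 985 in Dahl S and from 410 through 679 to 957 in S.SHR(2). Its strains overlapped over most of their range, with a log2 difference of −0.18 ± 0.151 (SE). With the deposit block as a covariate the difference was the same and its SE was 0.056, so the SE of 0.151 includes the spread between blocks.

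The deposit blocks separated the Mecom probe sets in another way. The brighter one had a mean intensity of 919.5 ± 60.6, 744 ± 50.4 and 568 ± 23.1 in the 3 blocks of Dahl S in order (SD, n = 3 each). In S.SHR(2) the block means were 860 ± 93.9, 666 ± 38.0 and 477 ± 58.0. Both strains thus read lower in the third block than in the first, and S.SHR(2) lay below Dahl S without overlap in the second block and in the third. For this probe set the strain difference was −0.12 ± 0.0996, −0.15 ± 0.0656 and −0.27 ± 0.107 (log2, SE) by block, and differences between blocks made up 92.2% of the variance within strains, against a median of 50.1% and a 90th percentile of 82.6% over the 18625 probe sets of the brighter 60%. The dimmer one did not share that order: its Dahl S means were 258, 221 and 262 and its S.SHR(2) means 63.1, 56.8 and 85.8. Its strain difference was −1.78 ± 0.321, −1.73 ± 0.143 and −1.38 ± 0.155 (log2, SE) in the 3 blocks, and the strains did not overlap in any block.

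Tiparp held the widest disagreement of the 4 genes. The dimmer probe set, 1385407_at, ran from 104 through a median of 129 to 172 in Dahl S and from 5.8 through 27.7 to 93.8 in S.SHR(2), again without overlap. The means were 131 ± 20.0 and 37.7 ± 28.0 (SD, n = 9 each), with a log2 difference of −1.58 ± 0.241 (SE). The brighter probe set, 1374446_at, had nearly equal means of 297.6 ± 31.4 and 297.5 ± 32.0, ranges of 256 to 346 and 262 to 357, and a log2 difference of 0.01 ± 0.073.

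Within S.SHR(2) the dim Tiparp probe set varied far more than within Dahl S. The S.SHR(2) rats read 5.8, 19.2 and 20.4 in the first block, 18.6, 27.7 and 34.0 in the second and 57.9, 61.8 and 93.8 in the third. The lowest of these, 5.8 in S.SHR(2) replicate 3, stood beside a TrpnX reading of 5.6 on its array. In Dahl S the block means were 129 ± 11.3, 131 ± 36.0 and 131 ± 13.1 (SD, n = 3 each), with no such difference. Relative to the mean, the SD came to 15.3% for Dahl S against 74.3% for S.SHR(2). The strain difference was −2.28 ± 0.244, −1.80 ± 0.256 and −0.67 ± 0.186 (log2, SE) by block, and the ranges of the strains stayed apart in each. The first of these rests on readings near the pseudocount of 16, so its size depends on that setting.

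Slc33a1 has 3 probe sets, of which 1 separated the strains. The probe set 1394304_at ran from 126 through a median of 206 to 272 in Dahl S and from 75.0 through 82.7 to 197 in S.SHR(2), so the ranges overlapped through the third block. Its means were 200 ± 46.0 and 104 ± 41.4 (SD, n = 9 each), and its log2 difference was −0.86 ± 0.165 (SE). The S.SHR(2) rats read 75.0 to 88.6 in the first block, 76.0 to 80.6 in the second and 115 to 197 in the third, while the Dahl S rats read 126 to 194, 147 to 216 and 206 to 272. Within each block the strains did not overlap, with log2 differences of −0.86 ± 0.184, −1.12 ± 0.156 and −0.60 ± 0.212 (SE).

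The other Slc33a1 probe sets had strain means that nearly coincided. The brightest, 1393216_at, was the steadiest of the 10, with 752 ± 65.8 in the Dahl S rats against 775 ± 38.5 in the S.SHR(2) rats (SD, n = 9 each) and a log2 difference of 0.02 ± 0.060 (SE). The probe set 1370134_at read 272 ± 93.2 and 271 ± 89.3, a log2 difference of 0.00 ± 0.187. Its spread followed the blocks in both strains: the third-block rats read 321 to 409 in Dahl S and 347 to 425 in S.SHR(2), whereas the second-block rats read 170 to 215 and 188 to 212. Blocks made up 78.2% of its variance within strains, 72.8% of that of 1394304_at and 36.4% of that of the brightest.

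Ppm1l showed the smallest strain difference among the 4 genes, and again in 1 of its probe sets. The probe set 1376584_at ran from 63.7 through a median of 76.8 to 97.5 in Dahl S and from 42.5 through 51.4 to 60.4 in S.SHR(2), without overlap. The means were 79.6 ± 11.5 and 51.1 ± 5.26 (SD, n = 9 each), with a log2 difference of −0.46 ± 0.092 (SE). By block the difference was −0.51 ± 0.101, −0.43 ± 0.170 and −0.45 ± 0.125, and blocks made up 14.7% of the variance within strains, the least of the 10 probe sets. The brightest Ppm1l probe set, 1376771_at, read 98.7 ± 13.1 and 94.8 ± 21.4 with a log2 difference of −0.03 ± 0.108, and its block differences were 0.16 ± 0.108, 0.00 ± 0.145 and −0.25 ± 0.150.

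The third Ppm1l probe set, 1375606_at, was the only one of the 10 outside the brighter 60% of the array. It read 1.0 to 13.2 in Dahl S and 1.3 to 37.4 in S.SHR(2), and exceeded the TrpnX controls of its own array in 7 of 9 Dahl S and 4 of 9 S.SHR(2) rats. Its log2 difference of 0.16 ± 0.161 (SE) therefore has no clear signal behind it.

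**Figure D1:**
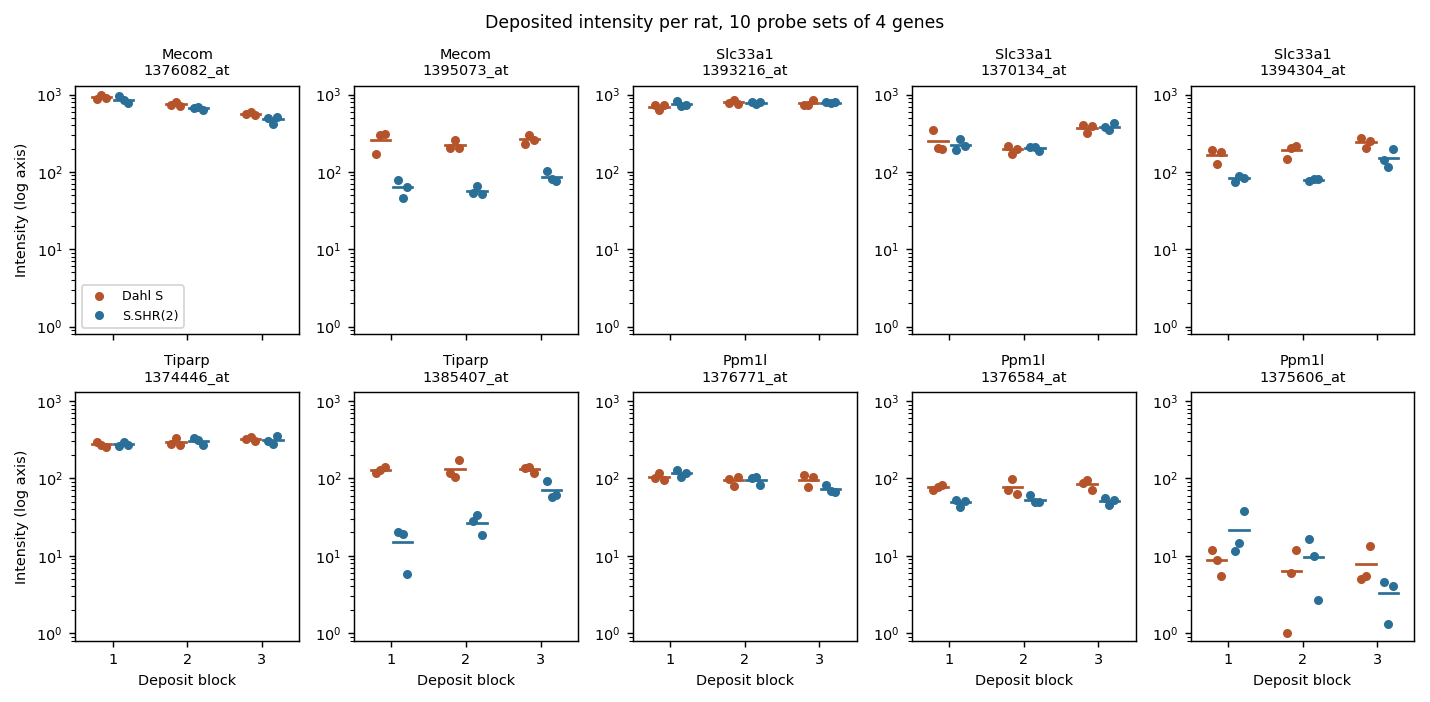
Deposited intensity (log axis) of the 10 probe sets by deposit block, with 1 point per rat, 3 rats per strain and block, and bars at the means. The S.SHR(2) rats lie below the Dahl S rats in every block for Mecom 1395073_at, Slc33a1 1394304_at, Tiparp 1385407_at and Ppm1l 1376584_at, and Mecom 1376082_at reads lower in the third block than in the first in both strains.

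Every S.SHR(2) rat read below every Dahl S rat for 3 of the 10 probe sets (0.0548% of all 31042 did so), and the same held within each of the 3 blocks for 4 of them (0.135% of all). The opposite order over all rats held for 0 of the 10 (0.0161% of all), and within each block for 0 of the 10 (0.0773% of all). In the fit over all probe sets 0.0548% were called as lower and 0.0193% as higher at an adjusted p under 0.05. The genes were chosen on this contrast, and nothing is read from these counts.

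The gap between probe sets, the log2 value of a probe set minus that of the brightest one of its gene in the same rat, removes what both share. Set to 0 at the Dahl S mean, the gap of the dim Mecom probe set ran from −0.71 to 0.57 in Dahl S and from −2.30 to −0.51 in S.SHR(2), and 7 of 9 S.SHR(2) rats lay below the lowest Dahl S rat. The gap of Tiparp ran from −0.42 to 0.51 and from −2.64 to −0.38, with 8 of 9 below. That of Slc33a1 1394304_at ran from −0.36 to 0.42 and from −1.32 to −0.07, also with 8 of 9 below. For Ppm1l 1376584_at 5 of 9 lay below. The mean gap in S.SHR(2) was −1.45 for Mecom, −1.60 for Tiparp, −0.89 for Slc33a1 1394304_at and −0.43 for Ppm1l 1376584_at, against −0.02 for Slc33a1 1370134_at and 0.19 for the dimmest Ppm1l probe set.

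**Figure D2:**
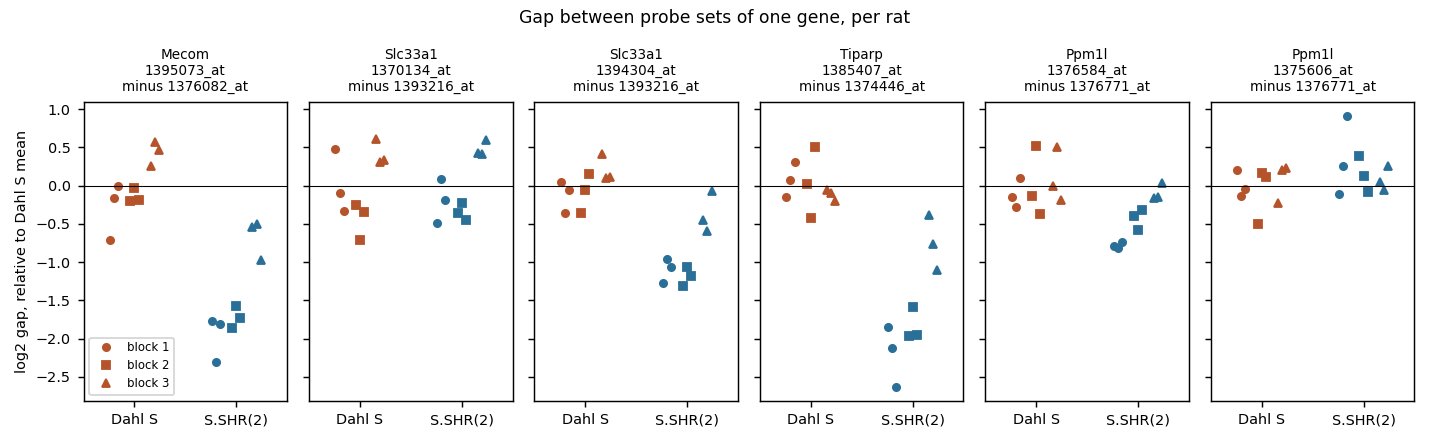
Gap between each probe set and the brightest one of its gene, per rat, on the log2 scale and relative to the Dahl S mean (black line at 0), with the deposit block as the marker shape. In S.SHR(2) the third-block rats lie above the other blocks for Mecom 1395073_at, Slc33a1 1394304_at, Tiparp 1385407_at and Ppm1l 1376584_at.

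The difference between strains in the gap was smallest in the third block for each of the 4 strain-differing probe sets. For Mecom the difference between strains in the gap was −1.67 in the first block, −1.58 in the second and −1.11 in the third. For Tiparp it was −2.29, −1.87 and −0.63, for Slc33a1 1394304_at −0.98, −1.103 and −0.58, and for Ppm1l 1376584_at −0.67, −0.43 and −0.20. In Ppm1l the strain difference of 1376584_at itself stayed between −0.51 and −0.43. That of the brighter probe set, 1376771_at, was 0.16 in the first block and −0.25 in the third. The interaction test described next did not call this change (limma F test, adjusted p = 0.85).

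Whether the strain difference of a probe set varied between blocks was tested with the interaction of strain and block, a contrast other than the one that chose the genes. In limma's F test over 31042 probe sets, 0.00322% were called at an adjusted p under 0.05 and 6.27% had an unadjusted p under 0.05. None of the 10 probe sets was called, and 1 had an unadjusted p under 0.05. That was Tiparp 1385407_at (F = 14.3, unadjusted p = 1.7e-04, limma adjusted p = 0.48), the 10th smallest p of all probe sets, with a strain difference 1.61 higher in the third than in the first block and 0.48 higher in the second on the log2 scale. The adjusted p values of the other 9 ran from 0.83 to 0.99. In Slc33a1 1394304_at the third block differed from the first by 0.26 (limma adjusted p = 0.83), and in Mecom 1395073_at by 0.40 (limma adjusted p = 0.89).

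**Figure D3:**
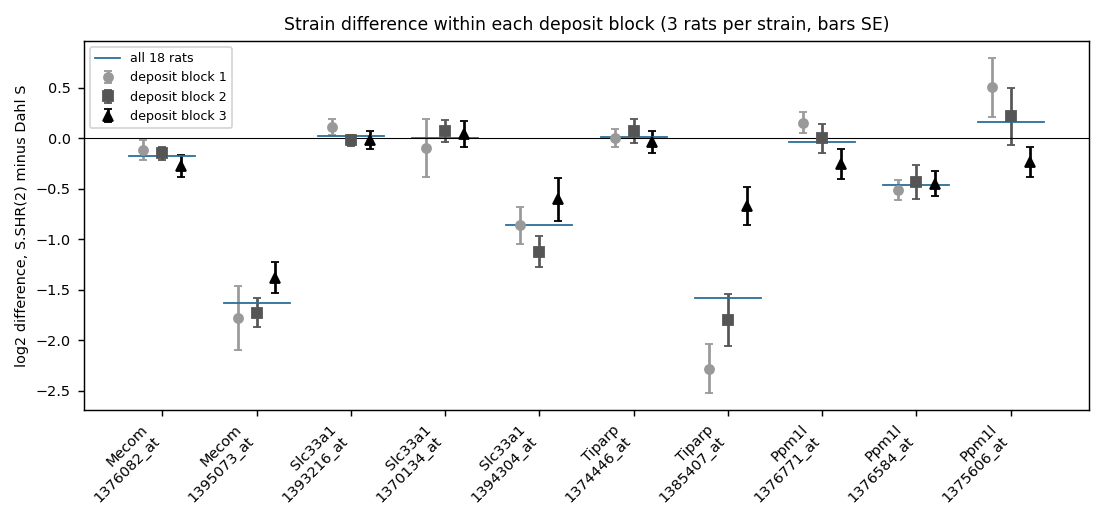
Log2 difference between strains (S.SHR(2) minus Dahl S) for each probe set within each deposit block (points, 3 rats per strain, bars SE), with the value over all 18 rats as a blue line. For Tiparp 1385407_at the points run from −2.28 in the first block to −0.67 in the third, while Ppm1l 1376584_at stays between −0.51 and −0.43.

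From rat to rat within a strain, the probe sets of a gene did not follow each other detectably. Of 12 correlations (6 probe sets against the brightest one of their gene, in each strain over 9 rats), none passed after adjustment over the 12, by exact permutation tests, two-sided, and the adjusted p values ran from 0.13 to 0.92. Between the Mecom probe sets, Pearson's r was 0.08 in Dahl S (exact permutation p = 0.83, adjusted p = 0.90, Spearman's rho 0.22, p = 0.58) and −0.52 in S.SHR(2) (exact permutation p = 0.15, adjusted p = 0.45, rho −0.48, p = 0.19). Without the 2 rats farthest from the median of the brighter probe set these were −0.10 and −0.06. For Tiparp r was −0.42 in Dahl S (exact permutation p = 0.26, adjusted p = 0.52, rho −0.45, p = 0.23) and 0.46 in S.SHR(2) (exact permutation p = 0.22, adjusted p = 0.52, rho 0.52, p = 0.16), and without the 2 farthest rats −0.66 and 0.28. For Slc33a1 1394304_at r was 0.67 in Dahl S (exact permutation p = 0.046, adjusted p = 0.19, rho 0.57, p = 0.12), and 0.04 without the 2 farthest rats, so it rests on those. For Ppm1l 1376584_at it was −0.74 in Dahl S (exact permutation p = 0.022, adjusted p = 0.13, rho −0.43, p = 0.25) and −0.13 without them. For the dim Ppm1l 1375606_at it was 0.75 in S.SHR(2) (exact permutation p = 0.016, adjusted p = 0.13, rho 0.78, p = 0.017) and 0.66 without them. These last 3 were the ones with an unadjusted p under 0.05.

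Since blocks moved several probe sets, the relation was also taken over deviations from the mean of each strain and block in all 18 rats, as a description. The r was 0.46 for the Mecom probe sets, 0.40 for Slc33a1 1394304_at, −0.07 for Tiparp and −0.24 for Ppm1l 1376584_at. For the dim Ppm1l 1375606_at it was 0.25, and for Slc33a1 1370134_at 0.08. A block holds 3 rats of a strain, too few for a correlation of its own.

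Between the 4 strain-differing probe sets, deviations from strain means over 18 rats gave an r of 0.63 for Slc33a1 with Tiparp and 0.55 for Mecom with Tiparp, which became 0.02 and 0.25 once block means were removed as well. For Mecom with Ppm1l the r was 0.53 either way. The remaining pairs were lower, at 0.30 for Mecom with Slc33a1, 0.23 for Tiparp with Ppm1l and 0.20 for Slc33a1 with Ppm1l. Without block means these became −0.39, −0.10 and −0.14. These pairs share their arrays and are given without a test.

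The gaps were set against the 3′/5′ ratios of the control transcripts on the same arrays. With the GAPDH ratio, none of 12 correlations passed (exact permutation tests, adjusted p values from 0.17 to 0.93). By Pearson's r the nearest was Ppm1l 1376584_at in Dahl S (r = 0.75, exact permutation p = 0.014, adjusted p = 0.17). None passed by Spearman's rho either, and there the nearest was Mecom 1395073_at in Dahl S (rho 0.82, exact permutation p = 0.011, adjusted p = 0.13). Its r was 0.55, and 0.95 without the 2 rats farthest from the median ratio. In S.SHR(2) the r of this Mecom gap was 0.04 and rho 0.42, and over deviations from strain and block means r was 0.44. These permutations ran over all rats of a strain regardless of block, so the p-values do not separate blocks from rats. With the beta-actin ratio 1 of 12 passed by Pearson's r and 3 by Spearman's rho. The first was that of Slc33a1 1370134_at in Dahl S (r = −0.92, exact permutation p = 5.2e-05, adjusted p = 6.3e-04, rho −0.95 with p = 3.5e-04). In S.SHR(2) this probe set gave r = −0.78 (exact permutation p = 0.0098, adjusted p = 0.056, rho −0.83 with p = 0.0083, adjusted p = 0.033), and over deviations from strain and block means r was −0.77. Without the 2 rats farthest from the median ratio the values were −0.93 and −0.64. Its gap was thus lower on arrays with a higher beta-actin ratio, and it is a probe set with no strain difference.

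The beta-actin ratio itself moved with block and in part with strain. Its geometric mean was 3.03, 4.02 and 2.64 in the 3 blocks of Dahl S and 4.31, 3.96 and 2.58 in those of S.SHR(2). For the strain-differing probe sets the r of gap and ratio in S.SHR(2) was −0.58 for Mecom 1395073_at, −0.76 for Slc33a1 1394304_at, −0.42 for Tiparp 1385407_at and −0.74 for Ppm1l 1376584_at (exact permutation tests, adjusted p values of 0.24, 0.056, 0.45 and 0.056), with rho of −0.58, −0.83, −0.42 and −0.77. By rho the second of these passed too (exact permutation, adjusted p = 0.033). Without the 2 rats farthest from the median ratio r was −0.66, −0.65, −0.43 and −0.54. In Dahl S r was 0.02, −0.35, −0.05 and 0.44 in the same order (exact permutation tests, adjusted p values of 0.96, 0.52, 0.96 and 0.45), with rho of −0.03, −0.42, 0.30 and 0.22, and −0.58, −0.52, 0.76 and −0.16 without the 2 farthest rats. Over deviations from strain and block means in all 18 rats of both strains r was 0.62, −0.27, 0.34 and 0.36. The strain differences, again in that order, were −1.73, −1.12, −1.80 and −0.43 in the second block and −1.38, −0.60, −0.67 and −0.45 in the third. The part of the ratio in the strain differences was not tested.

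Among all genes with several probe sets, the 4 stood at the far end of disagreement, as their choice implies. The spread, the largest minus the smallest strain difference among a gene's probe sets, was 1.60 for Tiparp and 1.45 for Mecom, the 2 largest of 4525 genes. Slc33a1 (0.89) was reached or passed by 7 genes including itself, all on chromosome 2, and Ppm1l (0.63) by 27, of which 13 lie on chromosome 2. Over brighter probe sets alone the Ppm1l spread was 0.43, reached by 40 of 2741 genes, and the other 3 kept their spread. The median spread was 0.15 for 318 genes of chromosome 2 and 0.13 for 4195 genes of other chromosomes, with 95th percentiles of 0.58 and 0.39. Among the 12 largest spreads over brighter probe sets, 9 were genes of chromosome 2, which holds 206 of the 2741 genes. These 9 include Tiparp, Mecom and Slc33a1, and the counts of 7 and 13 above include members too. The members were chosen as disagreeing genes of chromosome 2, so these counts follow in part from that choice.

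**Figure D4:**
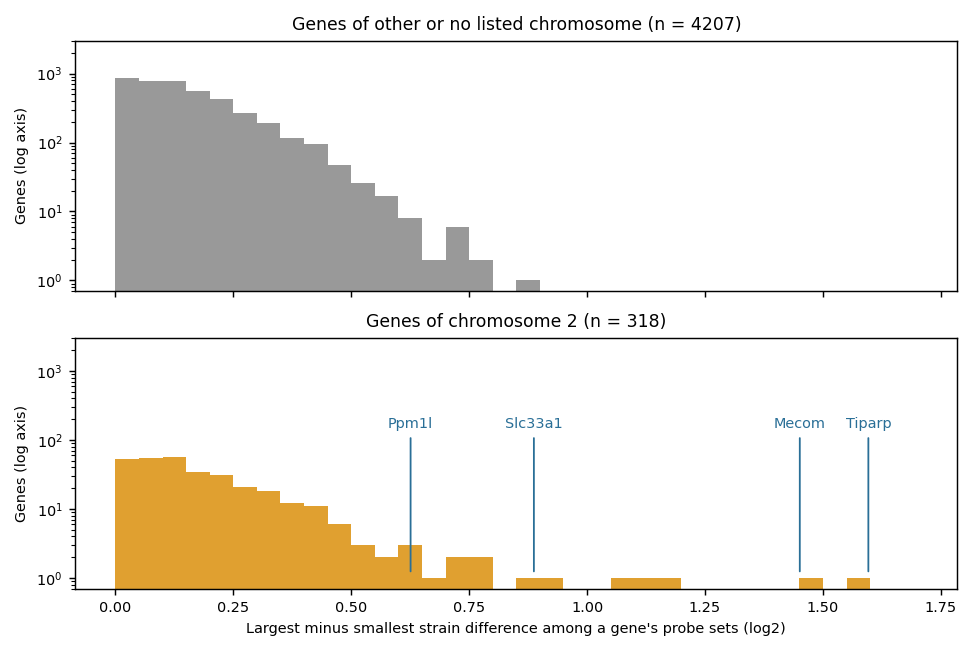
Histograms (log axis) of the spread of strain differences among the probe sets of a gene, on the log2 scale, for 4525 genes with 2 or more probe sets, chromosome 2 below and the rest above. The 7 spreads as large as that of Slc33a1 (0.89) or larger all belong to chromosome 2, with Mecom at 1.45 and Tiparp at 1.60. They include Slc33a1, Mecom and Tiparp, which were chosen for their disagreement.

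In gene order of GRCr8, Slc33a1, Tiparp and Ppm1l are the 383rd, 387th and 404th of 930 chromosome 2 genes with a probe set, and Mecom is the 285th. The 5 nearest such genes on each side made 33 neighbours with 58 probe sets. None of the 58 was called in the limma fit over all probe sets (0.0741% of all were called in either direction), while an unadjusted p under 0.05 was reached by 11 of 58 (19.0%) and by 4.40% of all probe sets. Among these 11 only a Pik3ca probe set lies near Mecom. The rest lie near Slc33a1 or Tiparp, with several probe sets of Dhx36 and of Ssr3, and none lies near Ppm1l. With the deposit block as a covariate 4 of the 58 were called, against 0.267% of all probe sets. These 4, picked after their values were seen, were Kcnab1 1378738_at, a potassium channel beta subunit (log2 difference 0.73 ± 0.109 SE, limma adjusted p = 0.0016), Gmps 1377577_at, the enzyme that makes GMP (−0.32 ± 0.060, adjusted p = 0.015), Dhx36 1385871_at, a helicase that unwinds G-quadruplexes (0.86 ± 0.159, adjusted p = 0.016), and Ssr3 1369718_at, a subunit of the translocon-associated complex (−1.01 ± 0.189, adjusted p = 0.018). All are neighbours of Slc33a1, and all but Dhx36 of Tiparp too. The median difference of the 58 was −0.06 and 38 were below 0, against a median of 0.00 and 15090 below 0 over 31042.

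Disagreement among probe sets recurred in these neighbours. Of the 13 neighbours with several probe sets, Dhx36 had a spread of 1.19 and Ssr3 of 1.1004, next after Tiparp and Mecom over brighter probe sets, and Kcnab1 of 0.58. The called Ssr3 probe set read 67.6 ± 26.3 in the 9 Dahl S rats and 24.5 ± 14.0 in the 9 S.SHR(2) rats, whereas the brightest Ssr3 probe set differed by 0.09 ± 0.089 (SE). The remaining 10 had spreads of 0.03 to 0.50. Mme, the peptidase neprilysin, has 1 probe set and stood at −0.34 ± 0.088 (limma adjusted p = 0.39, and not called with block as a covariate).

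**Figure D5:**
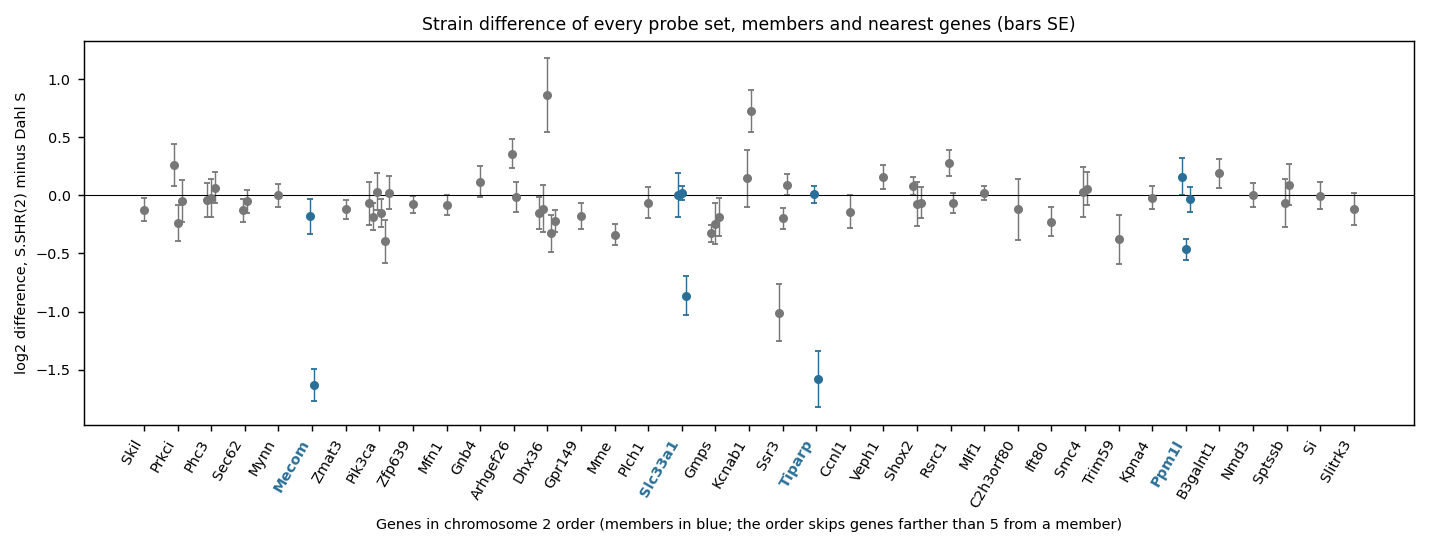
Log2 difference between strains (S.SHR(2) minus Dahl S, bars SE) of every probe set of the 4 genes (blue) and of their nearest genes (grey), in chromosome order. Beside the low points of the 4 genes, Ssr3 has a point at −1.01 and Dhx36 one at 0.86, each with other probe sets nearer to 0.

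Genes that work with the 4 proteins were not called. Only 0.0741% of all probe sets were called in either direction, so the absence of calls in short lists says little. In the list of aryl hydrocarbon receptor and ADP-ribosyltransferase genes 0 of 22 probe sets (18 genes) passed in limma, with 2 at an unadjusted p under 0.05 and a median log2 difference of −0.04. These were a dim probe set of Arnt, the partner of the receptor (−0.53 ± 0.192 SE), and a dim probe set of Parp6 (0.36 ± 0.137). The other Parp6 probe sets were at −0.12 ± 0.078 (the brightest) and −0.02 ± 0.103. Cyp1a1, the classical target of the receptor, was at 0.37 ± 0.204. The receptor gene Ahr itself gave −0.18 ± 0.150 and −0.14 ± 0.20. In the list of PRDM genes and cofactors 0 of 32 probe sets (18 genes) passed, with 1 at an unadjusted p under 0.05, dim Zfpm1 (0.30 ± 0.112), and a median of 0.01. The corepressor Ctbp1, a partner of Mecom, was at 0.05 ± 0.063 and the relative Prdm16 at 0.21 ± 0.140 and −0.06 ± 0.132.

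For acetyl-CoA supply and transfer, 0 of 22 probe sets (17 genes) passed in limma, 2 had an unadjusted p under 0.05 and the median was 0.05. The acetyltransferase Nat8, an enzyme of the endoplasmic reticulum, was at 0.20 ± 0.078 SE, Acat2 at 0.28 ± 0.131 and Acly, which makes cytosolic acetyl-CoA, at 0.04 ± 0.074. For PPM phosphatases and their kinase substrates, 0 of 35 probe sets (21 genes) passed, 1 had an unadjusted p under 0.05 and the median was 0.01. That one was Ppm1j (0.31 ± 0.116 SE), and Map3k7, a kinase that Ppm1l dephosphorylates, was at −0.17 ± 0.085. Over all 31042 probe sets the median was 0.00, and 4.40% had an unadjusted p under 0.05.

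The genes whose variation within strains was most like each strain-differing probe set were sought over 18 rats among 14079 brighter probe sets of other genes, by Pearson's r of deviations from strain means. They were Cisd2 (r = 0.90), Gorab (0.84) and C4h2orf68 (0.84) for Mecom, and Map4k3 (0.94), Ppat (0.92) and Rc3h1 (0.88) for Slc33a1. For Tiparp they were Paqr7 (0.81), Med19 (0.81) and Slc25a35 (0.80), and for Ppm1l Ccnc (0.80), Serp1 (0.78) and Cog3 (0.78). Each r is among the highest of 14079 values and is given without a test, so nothing is read from its size. Cisd2 and Serp1 lie on chromosome 2 and the others do not. Blocks made up 87.6% of the variance within strains for Paqr7, 83.2% for Med19, 76.4% for Rc3h1 and 76.2% for Map4k3, against 9.86% for Ccnc, and the part of the blocks in these likenesses was not tested.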

How the data were processed

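Kidney RNA of 18 rats, 9 Dahl S and 9 S.SHR(2), was measured on 1 array each. The intensities used are those the authors deposited, 1 per probe set, with the software not given in the sources used here. The 57 control probe sets were set aside. Values became log2(intensity + 16) and were quantile normalized, since array medians spanned 0.235, above a limit of 0.2. No dim probe sets were left out. limma 3.58.1 (R 4.3.3; lmFit, eBayes with trend) was fitted over 31042 probe sets, with Benjamini-Hochberg adjustment over all of them and calls at an adjusted p under 0.05. Exact permutation tests used 362880 orders of 9 rats, regardless of block. Block SEs come from the 3 rats per strain. Of 20826 probe sets naming 1 gene, 20758 matched the GRCr8 gene table. Named were all members, called neighbours, list genes with the smallest p and the genes most alike, besides list genes that work with a member. The genes and lists were chosen with earlier results of these data known. The fits were tested on simulated data. Figures used matplotlib 3.10.9.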

Additional observations from a re-analysis of the deposited data

Results flagged for a closer look

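In the dimmest Ppm1l probe set, 1375606_at, 1 of the 9 S.SHR(2) rats stood apart from the rest at an intensity of 37.4, against 16.6 for the next. Of 20 groups of 9 rats checked in this way (10 probe sets in each strain) this was the only one, and chance alone flags about 1 in 20. The reading belongs to S.SHR(2) replicate 3, the rat that also gave the lowest reading of Tiparp 1385407_at, 5.8.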

How the results depend on the processing

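The strain differences of the 10 probe sets and the gaps moved by less than 1 SD between rats under a pseudocount of 1, values as deposited, median centring, the 40% filter, the block covariate and fits without 1 rat, with the exceptions given here. With a pseudocount of 64 they were −1.22 for Mecom 1395073_at, −0.96 for Tiparp 1385407_at and −0.29 for Ppm1l 1376584_at, and the Tiparp gap was −0.97. A pseudocount of 1 gave −2.11 for Tiparp 1385407_at and −2.12 for its gap, so the size of this difference depends strongly on the setting. Without 1 rat each the ranges were −1.69 to −1.57, −1.73 to −1.44, −0.97 to −0.81 and −0.50 to −0.43 for the strain-differing probe sets of Mecom, Tiparp, Slc33a1 and Ppm1l. Differences near 0 (both other Slc33a1 probe sets and the brightest ones of Tiparp and Ppm1l) changed sign between these fits. The interaction of Tiparp 1385407_at stayed uncalled without 1 rat (limma adjusted p 0.25 to 0.84). Of the 58 neighbour probe sets 4 were called with block as a covariate, 1 (Dhx36) in the first and second blocks alone and 0 to 1 without 1 rat each, the 1 being Ssr3 without Dahl S replicate 2; the cause was not tested. The gap of Slc33a1 1370134_at in Dahl S gave r = −0.92 with the beta-actin in place of the GAPDH ratio (r = −0.36). Fits without the arrays of highest GAPDH ratio or the third block were added after the data were seen. No paired analysis was possible because the labels carry no replicate numbers, and those used here follow the order of deposit. Dim probe sets limit Ppm1l 1375606_at and the first-block S.SHR(2) readings of Tiparp 1385407_at.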
